A study of Mus musculus with 31 samples.

Results

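Interferon-stimulated genes were followed in the livers of 31 mice, as 41 members of the 31172 gene symbols used. The list was chosen by gene family, with earlier results of these data known: it was drawn up after Ifi44 had come to notice as higher in mice given the lower dose of Upf3b-GalNAc-ASO, so the lower dose is given here as a description. Whether values at 20 mg/kg also entered the choice is not known, so p-values of members at that dose may not be independent of it. The 41 members fall into 32 genes best known as targets of type I interferon, 6 interferon-inducible GTPases and 3 genes of antigen processing. All 31 mice carried a human factor IX minigene with the R29X nonsense mutation under the human transthyretin promoter, which is mainly active in hepatocytes, and lacked mouse F9. The mice were 8 to 14 weeks old and received 6 subcutaneous doses, at 5-day intervals by the treatment protocol, while the dose label calls the dosing weekly, so whether a dose in mg/kg is per injection or per week is not settled by the labels. DPBS, the saline vehicle, was given to 11 mice (6 females, 5 males). A scrambled antisense oligonucleotide with no target, Control-GalNAc-ASO, was given at 15 mg/kg to 4 mice (2 females, 2 males) and at 20 mg/kg to 6 mice (3 females, 3 males). Upf3b-GalNAc-ASO, which directs RNase H to the mRNA of the nonsense-mediated decay factor UPF3B, was given at 10 mg/kg to 5 mice (2 females, 3 males) and at 20 mg/kg to 5 mice (2 females, 3 males), whose replicate numbers are 1, 2, 4, 5 and 6 and whose values are given in that order. GalNAc binds the asialoglycoprotein receptor of hepatocytes, so the oligonucleotides were aimed at hepatocytes while the RNA came from whole liver.

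Interferons are secreted signals of infection and nucleic acid sensing. Type I interferon acts through its receptor, the kinases Jak1 and Tyk2 and the factors STAT2 and IRF9, and its targets carry the interferon-stimulated response element in their promoters. Targets of interferon gamma often carry gamma-activated sites, and the best known of them in mouse liver include the guanylate-binding proteins (Gbp genes), the immunity-related GTPases (Igtp, Irgm1) and the genes that prepare peptides for MHC class I. Many genes of both classes answer both kinds of interferon, so the classes used here are names for lists and not readouts of a cytokine.

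Promoter sequences show what these members have in common outside their measured levels. RefSeq (GRCm38.p6) gave a window of 300 bases, 250 before and 50 after the start, for 31 of the 41 members. A core of the response element, GAAANNGAAA on either strand, was found in 17 of these 31 members (54.8%), and in 1079 of 27025 genes with a window (3.99%). It was present in 12 of 23 type I members (52.2%), in 5 of 5 GTPases and in 0 of 3 antigen processing genes. A gamma-activated site, TTCNNNGAA, was found in 7 of the 31 members (22.6%) and in 9.55% of all genes, and 4 members held both motifs. The windows below are shown because they carry the motifs of members that the results turn on: 3 response elements that overlap in Isg15, a pair in Ifit1, a single one in Rsad2, and both motifs in Bst2, where they overlap, and in the GTPases Igtp and Gbp7, where they do not. Each is read 5′ to 3′ in the direction of the gene, with every match to either motif in capitals.
Isg15 (chr4:156200819-156200938, minus strand): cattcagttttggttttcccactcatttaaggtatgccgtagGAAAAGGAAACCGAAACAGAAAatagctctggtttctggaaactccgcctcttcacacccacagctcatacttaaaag
Rsad2 (chr12:26456473-26456592, minus strand): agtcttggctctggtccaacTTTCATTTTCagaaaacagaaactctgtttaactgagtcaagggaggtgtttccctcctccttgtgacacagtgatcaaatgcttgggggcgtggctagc
Ifit1 (chr19:34640765-34640884, plus strand): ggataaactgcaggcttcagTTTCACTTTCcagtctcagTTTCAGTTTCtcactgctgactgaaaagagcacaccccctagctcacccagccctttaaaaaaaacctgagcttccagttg
Bst2 (chr8:71537509-71537628, minus strand): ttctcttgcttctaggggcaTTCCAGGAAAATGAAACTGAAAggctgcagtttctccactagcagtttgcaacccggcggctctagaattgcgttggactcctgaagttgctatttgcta
Igtp (chr11:58199436-58199555, plus strand): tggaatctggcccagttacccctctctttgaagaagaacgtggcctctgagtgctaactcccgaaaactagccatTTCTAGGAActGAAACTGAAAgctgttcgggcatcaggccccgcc
Gbp7 (chr3:142530210-142530329, plus strand): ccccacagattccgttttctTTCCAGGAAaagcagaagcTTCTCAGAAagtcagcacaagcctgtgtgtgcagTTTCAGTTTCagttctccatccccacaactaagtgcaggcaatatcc
The windows of Ifi44 and Tap1 held neither motif, and a match or its absence is a description of these letters only.

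**Figure D1:**
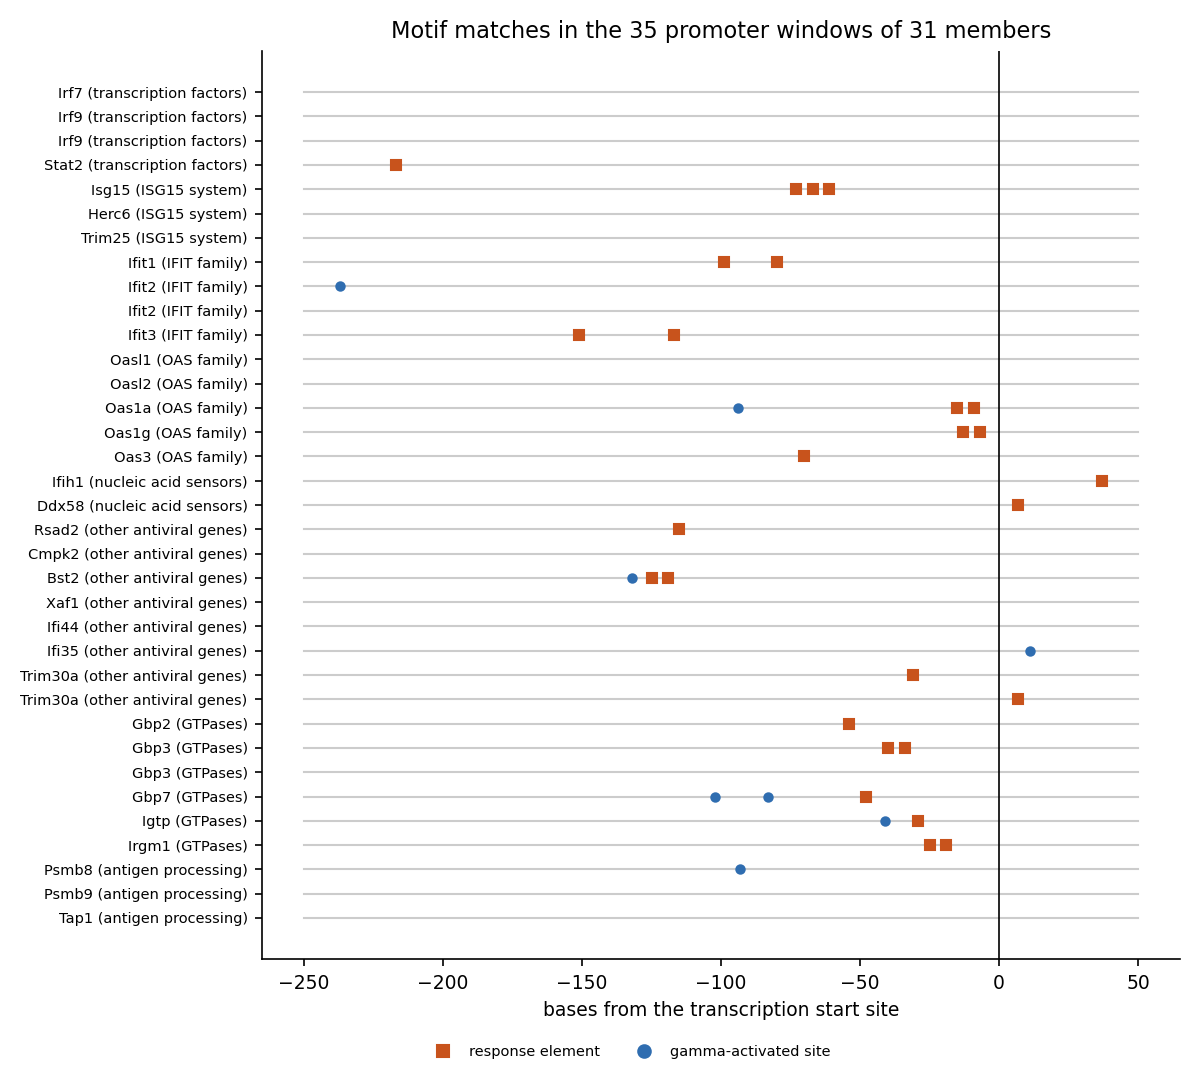
Position of each motif match (x axis, bases from the transcription start site, the vertical line at 0) in the promoter windows of 31 members, 1 line per window with 4 members having more than 1 start. Squares mark the response element core and circles the gamma-activated site, and the response elements of Isg15, Ifit1, Rsad2 and Bst2 lie before the start.

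By position (GRCm38), the 41 members were spread over 14 chromosomes, and 19 of them stood in 7 clusters with gaps of at most 200000 bases. The largest cluster held Oas2, Oas3, Oas1g and Oas1a at chr5:120730333-120907521. Ifit2, Ifit3 and Ifit1 stood at chr19:34550694-34650009, Gbp7, Gbp3 and Gbp2 at chr3:142530342-142638008, and Psmb9, Tap1 and Psmb8 at chr17:34181987-34201454. Rsad2 and Cmpk2 were neighbours at chr12:26442746-26479837. Members of a cluster that belong to the same gene family share sequence, above all in the Oas, Ifit and Gbp families. Reads shared between such copies could have been divided among them in the authors' counting.

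Levels are the authors' TPM, a transcript abundance scaled to the same total in each mouse. Fold changes are differences of log2(TPM + 1) from limma with sex as a term, and a gene was called where its p, adjusted over all genes tested, was under 0.05. Upf3b itself stood at 9.37, 2.68, 2.57, 16.7 and 7.68 TPM in the 5 mice given Upf3b-GalNAc-ASO at 20 mg/kg, against 85.3 to 135 TPM in the 6 mice given the same dose of Control-GalNAc-ASO, with no overlap. At 10 mg/kg it stood at 5.97, 20.7, 53.7, 3.95 and 23.3 TPM, and replicate 3, the highest, lay inside the 27.1 to 78.7 TPM of Control-GalNAc-ASO at 15 mg/kg. That mouse also had the fewest reads of all (1012529) and the lowest median correlation with the other mice of its own group (0.677), so fold changes at 10 mg/kg are given with and without it. The hepatocyte markers Alb, Apoa1, Ttr, Cps1 and Asgr1 summed to 12795 to 35063 TPM over the 31 mice. In whole liver, fewer cells of a type and less RNA per cell cannot be told apart. Of the members, 20 were above 0 in every mouse and 21 were at 0 in at least 1 mouse. A median of at least 5 TPM over all mice was reached by 27 members, and 3 (Oas1a, Oas2 and Mx1) had a median of 0. Their levels were therefore often close to the worth of 3 reads, 0.406 to 2.94 TPM by mouse.

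At 20 mg/kg, 3 members were higher with Upf3b-GalNAc-ASO than with Control-GalNAc-ASO: Isg15, Zbp1 and Tap1. Isg15 encodes a ubiquitin-like protein that is joined to other proteins in the interferon response, Zbp1 a sensor of Z-form nucleic acids and Tap1 a subunit of the transporter that carries peptides to MHC class I. This comparison set Upf3b-GalNAc-ASO against a scrambled oligonucleotide of the same chemistry and dose. The 2 differ in sequence as well as in target, so depletion of Upf3b and other effects of the sequence cannot be told apart. Of 41 members, 30 passed the minimum of 5 TPM in the median of at least 1 of the 2 groups, 25 of them through both groups, and 3 were called against 0.928% of all genes tested (87 of 9376). Without adjustment 12 of the 30 were higher at a p under 0.05, against 7.32% of all genes, and 0 were lower. Through the Upf3b group only, 4 members passed the minimum. Usp18 and Oasl1 are among these and are counted in the 12, so that count rests in part on the filter. In 2 members, Zbp1 and Tap1, every Upf3b mouse lay above every control mouse, against 1.65% of all genes.

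Isg15 stood at 902, 539.5, 642, 611 and 492 TPM in the 5 Upf3b mice at 20 mg/kg. In the 6 control mice at that dose it ran from 104 to 635 TPM with a median of 211 TPM, and in the 11 DPBS mice from 126 to 291 TPM with a median of 199 TPM. The Upf3b mice therefore lay above 5 of the 6 controls and above every DPBS mouse, and the exception was control replicate 6, at 635 TPM. The means were 638 ± 159 TPM (SD, n = 5) against 260.3 ± 195 TPM (SD, n = 6), a log2 fold change of 1.55 (SE 0.369, limma adjusted p = 0.0313). The call depended on single mice. It was lost without Upf3b replicate 1 (adjusted p = 0.109), 2 (0.0596), 4 (0.0539) or 5 (0.0539), and without control replicate 1 (0.0718), 2 (0.0743), 3 (0.109) or 5 (0.0615), while the log2 fold change stayed between 1.31 and 1.96. In the plot of 6 members by mouse, control replicate 6 is the point that reaches the Upf3b range.

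Zbp1 stood at 65.6, 19.6, 37.8, 42.0 and 62.6 TPM in the Upf3b mice at 20 mg/kg. It ran from 0.406 to 17.2 TPM in the controls with a median of 9.40 TPM, and from 0.844 to 23.6 TPM in the DPBS mice with a median of 10.4 TPM. Every Upf3b mouse was above every control, and replicate 2 alone fell within the range of DPBS. The log2 fold change against the controls was 2.37 (SE 0.559, limma adjusted p = 0.0292). The call was lost without Upf3b replicate 1 (adjusted p = 0.111) or 6 (0.0849) and without control replicate 1 (0.0502) or 3 (0.0785).

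Tap1 stood at 95.4, 38.2, 61.2, 83.0 and 32.6 TPM in the Upf3b mice at 20 mg/kg, against 16.6 to 25.0 TPM in the controls with a median of 21.5 TPM. Its control values were the least spread of the 3 called members, and the groups did not overlap. In DPBS it ran from 2.53 to 35.4 TPM with a median of 24.3 TPM. The log2 fold change was 1.39 (SE 0.346, limma adjusted p = 0.0354). It remained called without Upf3b replicate 2 or 6, and was lost without Upf3b replicate 1 (adjusted p = 0.143), 4 (0.0546) or 5 (0.0787) and without control replicate 1 (0.0569), 2 (0.0692), 3 (0.111), 4 (0.0517), 5 (0.0681) or 6 (0.05004).

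**Figure D2:**
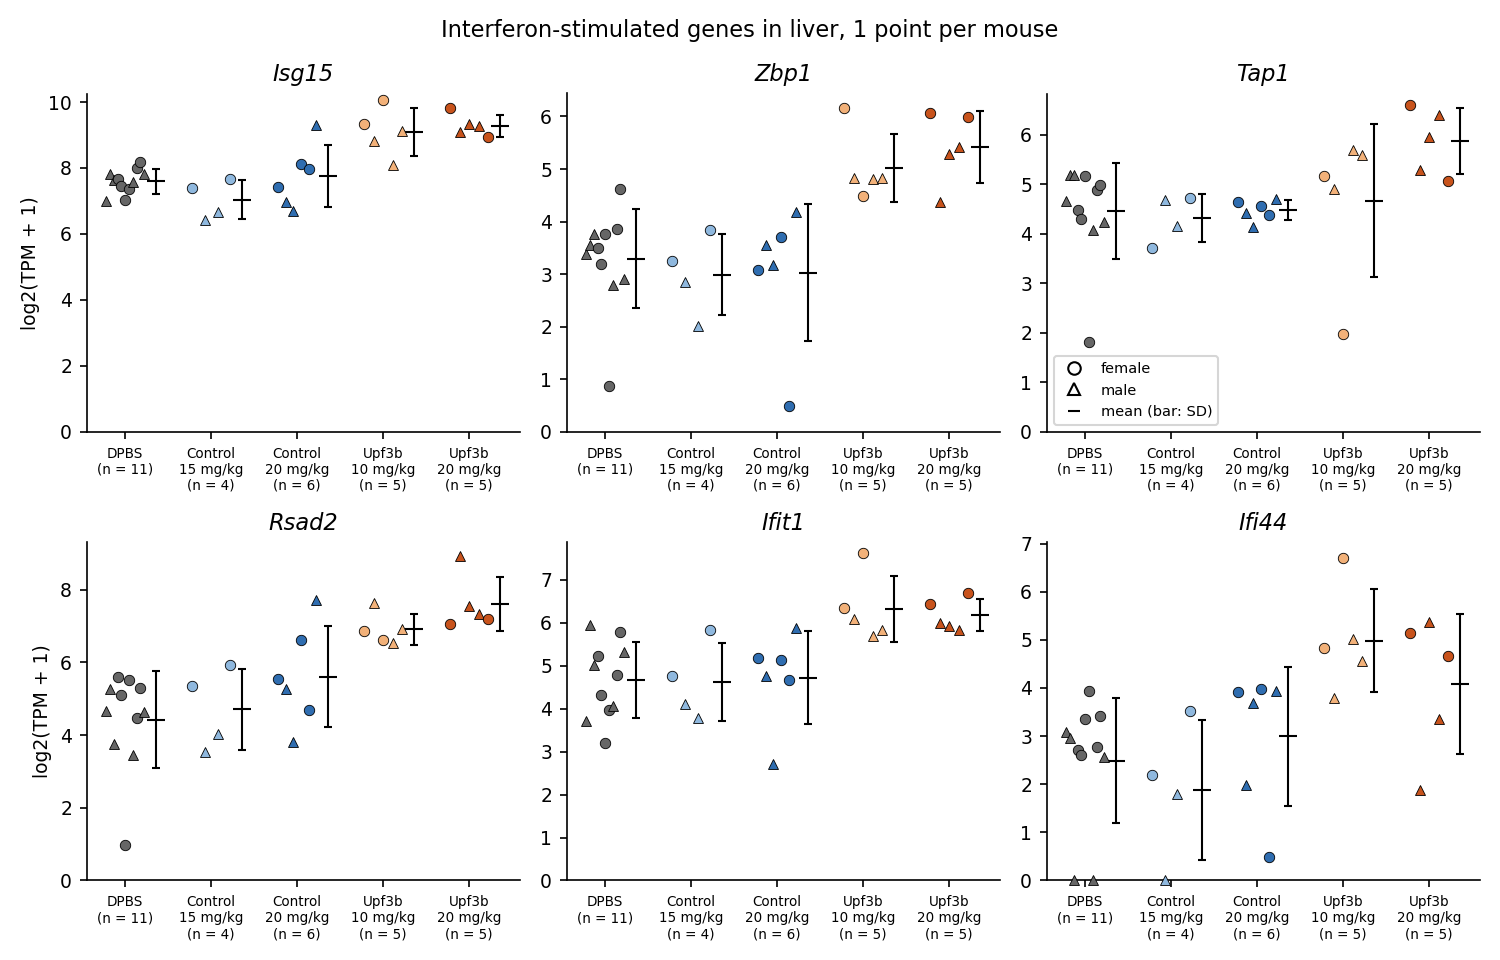
Levels of 6 members as log2(TPM + 1) (y axis) by treatment group (x axis), 1 point per mouse, circles for females and triangles for males, with the group mean and SD beside the points. Both Upf3b groups sit above most DPBS mice for Isg15, Zbp1, Rsad2 and Ifit1, Ifi44 is scattered in both, and for Tap1 the 20 mg/kg group stands above its controls.

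By role, the transcription factors of the pathway were not called at 20 mg/kg. Irf7, which amplifies interferon production, had a log2 fold change of 1.34 (SE 0.628, limma adjusted p = 0.259), and its Upf3b mice ran from 13.2 to 44.7 TPM against 0.406 to 30.8 TPM. Irf9, the DNA-binding subunit of the type I complex, stood at 44.5, 31.1, 61.8, 67.2 and 79.1 TPM in the Upf3b mice and between 27.3 and 71.8 TPM in the controls, with a log2 fold change of 0.34 (SE 0.344, adjusted p = 0.6252). These ranges overlapped over most of their length. Stat2, a signal transducer of the type I receptor, had a log2 fold change of 0.03 (SE 0.404, adjusted p = 0.975).

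Within the ISG15 system the called member was Isg15. Usp18, the protease that removes ISG15 and restrains the receptor, was at 14.7, 18.05, 3.68, 25.9 and 16.0 TPM against 0 to 14.1 TPM in the controls, where 2 of the 6 mice were at 0. Its log2 fold change was 1.83 (SE 0.719, adjusted p = 0.175). Trim25, the ubiquitin ligase that activates RIG-I, had a log2 fold change of 0.20 (SE 0.281), and Herc6, the main ISG15 ligase of the mouse, was too low to be tested.

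Among the IFIT genes, whose proteins bind foreign RNA ends, Ifit1 stood at 85.4, 62.8, 59.8, 55.8 and 103 TPM against 5.50 to 57.8 TPM in the controls. The lowest Upf3b mouse and the highest control, replicate 6, were the pair that overlapped. The log2 fold change was 1.51 (SE 0.417) with a limma adjusted p of 0.0542, past the threshold when control replicate 6 was left out (log2 fold change 1.88, adjusted p = 0.0163). Of the 11 fits that each left out 1 mouse, Ifit1 was called in that 1 only, and the adjusted p reached 0.144. Ifit3 was lower in level and more scattered, with a log2 fold change of 0.66 (SE 0.704, adjusted p = 0.651), and Ifit2 was too low to be tested.

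The OAS family is named for making the messenger that activates RNase L. Of its 6 members, 2 were tested and 0 called. Oasl1 stood at 5.33, 12.3, 17.0, 1.95 and 8.62 TPM, which was 4 to 64 reads, against 0 to 4.06 TPM in the controls, with a log2 fold change of 2.15 (SE 0.699, adjusted p = 0.0977). Its highest control lay above its lowest Upf3b mouse. Oasl2 had a log2 fold change of 0.41 (SE 0.463), and Oas3, the best detected of the untested members by its median, did not exceed 3.66 TPM in any mouse.

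The sensors did not move as 1 group. Zbp1 was called, whereas Ddx58 (RIG-I) stood at 29.6, 22.3, 25.3, 41.1 and 33.9 TPM against 23.8 to 57.8 TPM, with a log2 fold change of -0.15 (SE 0.331). Ifih1 (MDA5) had a log2 fold change of 0.34 (SE 0.497). The Ddx58 value is inside its error, and its sign turned when control replicate 2 was left out (0.03).

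Of the 12 other antiviral genes, 9 were tested, 8 had a fold change above 0 and 0 were called, while 4 had an unadjusted p under 0.05. Rsad2 (viperin) stood at 132, 482, 185, 159.7 and 145 TPM against 13.1 to 209 TPM in the controls with a median of 41.5 TPM. Control replicate 6 was again the highest control and lay inside the Upf3b range. The log2 fold change was 1.96 (SE 0.628, adjusted p = 0.122), and without control replicate 6 it was 2.45 (adjusted p = 0.0149). Of the 11 fits that each left out 1 mouse, Rsad2 was called in that 1 only, and the adjusted p reached 0.231. Bst2 (tetherin) stood at 1791, 659.9, 1649.9, 1541 and 1759.8 TPM against 511 to 1133 TPM. Replicate 2 was the single Upf3b mouse within the range of the controls. The log2 fold change of Bst2 was 0.86 (SE 0.276, adjusted p = 0.0948), and without that mouse 1.08 (adjusted p = 0.0134). Bst2 too was called in that 1 of the 11 fits only, and its adjusted p reached 0.246. Ifi27, a mitochondrial protein gene, had a log2 fold change of 0.22 (SE 0.332).

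Ifi44, the gene that drew attention at the lower dose, stood at 34.1, 2.69, 40.5, 9.28 and 24.2 TPM at 20 mg/kg, which was 14 to 160 reads. It ran from 0.406 to 14.7 TPM in the controls with a median of 12.9 TPM, and from 0 to 14.4 TPM in DPBS with a median of 5.81 TPM. Of the 5 Upf3b mice, 3 lay above every control and 2 among them. The log2 fold change was 1.12 (SE 0.727, limma adjusted p = 0.425). The difference of the means of log2(TPM + 1), 1.08, had an exact two-sided permutation p of 0.236 (109 of 462 splits of 5 and 6 mice).

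Over the 32 type I members, 22 were tested (18 through both groups, 3 through the Upf3b group only and 1 through the control group only). Of these, 20 had a fold change above 0 and 2 were called. Their median log2 fold change was 0.76, against -0.12 over all 9376 genes, of which 43.2% were above 0. With no minimum the median over all 32 was 0.41 and 28 were above 0, against a median of -0.05 over all genes. Quantile normalization brought the median of all genes from -0.12 to -0.01, so each member's value is about 0.1 higher relative to all genes than as printed.

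**Figure D3:**
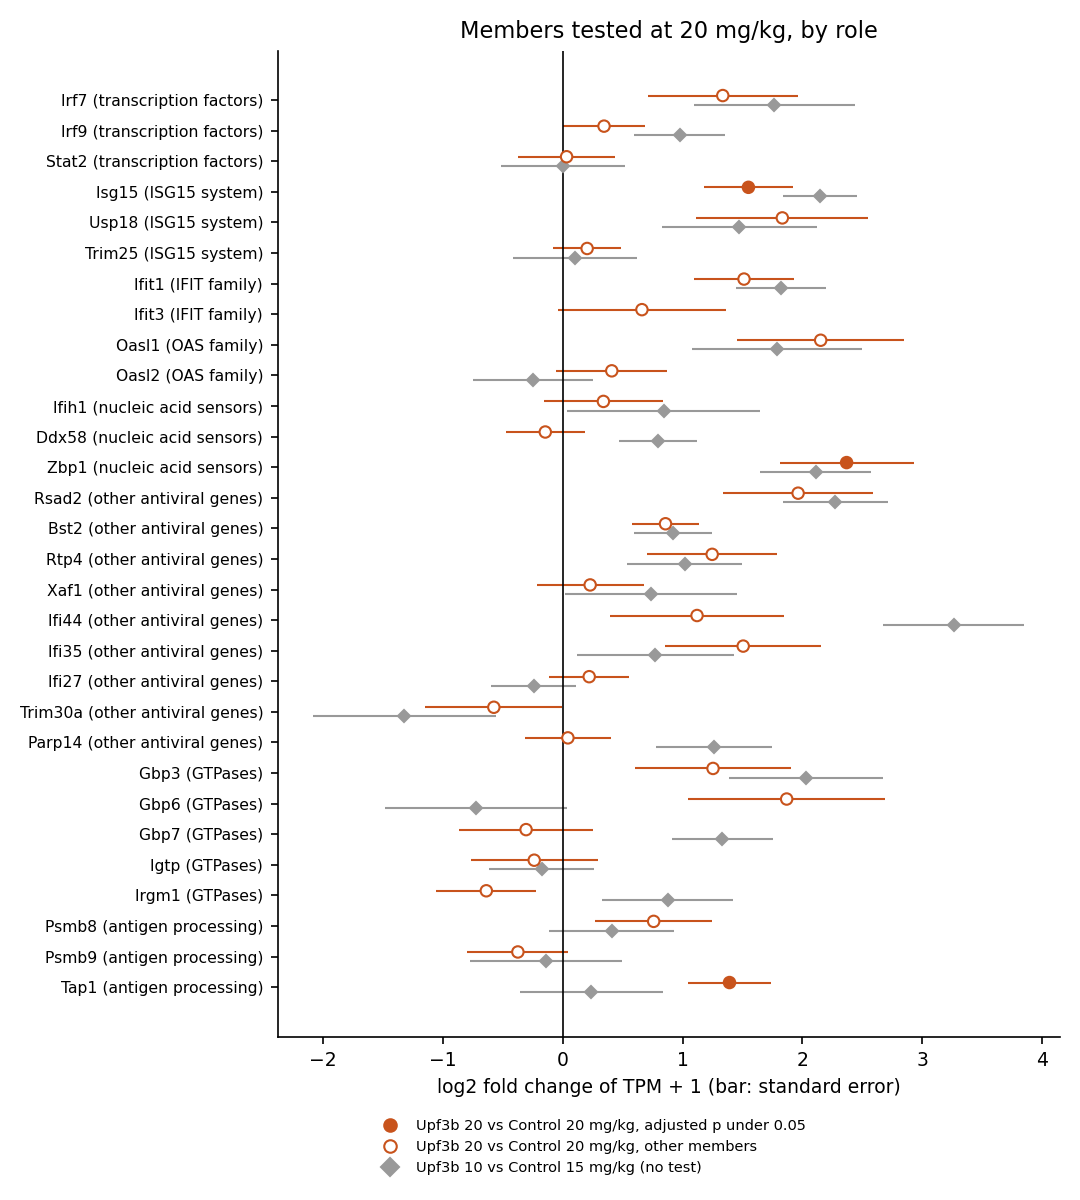
Log2 fold change of TPM + 1 (x axis, bars are standard errors) for the 30 members tested at 20 mg/kg, listed by role (y axis). Circles show Upf3b-GalNAc-ASO against Control-GalNAc-ASO at 20 mg/kg, filled for the 3 members called (Isg15, Zbp1, Tap1), and diamonds show 10 mg/kg against 15 mg/kg as a description.

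The GTPases guard the membranes of intracellular vacuoles. Of 6 members 5 were tested, 2 had a fold change above 0, 0 were called and 1 (Gbp6) had an unadjusted p under 0.05. Their median log2 fold change was -0.24, and it turned to 0.15 over all 6 members with no minimum, so no direction is given. Gbp6 stood at 39.4, 4.22, 73.7, 29.9 and 41.01 TPM against 0 to 32.2 TPM in the controls, with a log2 fold change of 1.87 (SE 0.820, adjusted p = 0.241). Gbp7 stood at 64.8, 10.2, 9.21, 29.3 and 21.5 TPM against 2.55 to 77.9 TPM, with a log2 fold change of -0.31 (SE 0.558). Igtp stood at 42.0, 1.92, 11.1, 17.1 and 8.82 TPM against 7.31 to 26.4 TPM, with a log2 fold change of -0.24 (SE 0.532). In all 3 of these genes the groups overlapped. The difference between the classes was not tested, since the members were chosen with results known.

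Of the antigen processing genes, Tap1 was called, and the immunoproteasome subunits Psmb8 and Psmb9 were not. Psmb8 had a log2 fold change of 0.76 (SE 0.489, adjusted p = 0.418) and Psmb9 of -0.37 (SE 0.422, adjusted p = 0.671). Psmb9 and Tap1 are neighbours in the MHC region of chromosome 17, and their fold changes had opposite signs.

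Against DPBS, Upf3b-GalNAc-ASO at 20 mg/kg again had 3 members called higher, Isg15, Rsad2 and Zbp1, of 29 tested, against 0.297% of all genes (27 of 9078). This comparison asked how far treated livers stood from untreated ones, and it shares its Upf3b mice with the comparison above. Of the 29, 25 passed the minimum through both groups and 4 through the Upf3b group only. Without adjustment 15 of the 29 were higher at a p under 0.05, against 5.38% of all genes. The 15 include members that passed through the Upf3b group only, Irf7 and Oasl1 among them, so that count rests in part on the filter. In Isg15 and Rsad2 every Upf3b mouse lay above every DPBS mouse, against 0.33% of all genes. Isg15 had a log2 fold change of 1.70 (SE 0.229, limma adjusted p = 1.0e-04). Rsad2 ran from 0.972 to 47.3 TPM in DPBS with a median of 24.3 TPM, and its log2 fold change was 3.16 (SE 0.584, adjusted p = 0.00657), the largest of the members tested here. Zbp1 had 2.18 (SE 0.467, adjusted p = 0.0147). Isg15 and Rsad2 were called whichever of the 16 mice was left out, while Zbp1 was lost without Upf3b replicate 1 (adjusted p = 0.0706) or 6 (0.0877).

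Other members leaned the same way without passing. Ifit1 had a log2 fold change of 1.51 (SE 0.397, adjusted p = 0.0656), Bst2 of 0.92 (SE 0.279, adjusted p = 0.126), Irf7 of 2.17 (SE 0.649, adjusted p = 0.120), Tap1 of 1.36 (SE 0.440, adjusted p = 0.161) and Ifi44 of 1.80 (SE 0.599, adjusted p = 0.175). All 21 type I members tested had a fold change above 0, with a median of 0.94 against 0.05 over all genes, of which 53.6% were above 0. Over all 32 with no minimum the median was 0.92 and 31 were above 0. The 5 GTPases tested had a median of 0.68, from -0.19 for Igtp to 1.72 for Gbp6, with 2 at an unadjusted p under 0.05 and 0 called.

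Control-GalNAc-ASO at 20 mg/kg against DPBS showed what the oligonucleotide without a target did. Of 27 members tested 0 were called by limma, as were 0% of the 9140 genes, and 2 (Trim30a and Irgm1) were higher at an unadjusted p under 0.05, against 7.16% of all genes. Trim30a passed the minimum through the Control-GalNAc-ASO group only, so that count rests in part on the filter and nothing is read from it. Trim30a, a ubiquitin ligase gene, had a log2 fold change of 1.59 (SE 0.521, adjusted p = 0.40004) and Irgm1 of 1.27 (SE 0.443, adjusted p = 0.426). The members called elsewhere were close to DPBS or scattered: Isg15 had 0.16 (SE 0.286), Zbp1 -0.28 (SE 0.524), Tap1 0.01 (SE 0.388) and Rsad2 1.18 (SE 0.638, adjusted p = 0.550). The type I median was 0.27 over 20 members tested, against 0.15 over all genes.

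The class means show the same values by mouse. The mean of log2(TPM + 1) over the 32 type I members was 2.99 ± 0.358 (SD, n = 11) in DPBS, 3.11 ± 0.506 (n = 4) with Control-GalNAc-ASO at 15 mg/kg, 3.35 ± 0.510 (n = 6) with the control at 20 mg/kg, 3.93 ± 0.240 (n = 5) with Upf3b-GalNAc-ASO at 10 mg/kg and 3.98 ± 0.266 (n = 5) at 20 mg/kg. As a description of a chosen list, every Upf3b mouse lay above every DPBS mouse, and the closest pair was 3.51 against 3.50. Of the control mice, replicate 6 (4.02) and replicate 4 (3.90) at 20 mg/kg and replicate 4 (3.71) at 15 mg/kg lay above every DPBS mouse. Control replicate 6 held the highest value of its group in 12 of the 31 type I members detected there and in 3 of 3 antigen processing genes. Control replicate 4 at 15 mg/kg did so in 20 of 32 type I members. The GTPase means overlapped in all groups, from 2.92 ± 0.694 in DPBS to 3.60 ± 0.270 at 10 mg/kg and 3.56 ± 0.591 at 20 mg/kg of Upf3b-GalNAc-ASO. The antigen processing means were 4.09 ± 0.454 in DPBS, 4.14 ± 0.368 in the controls at 20 mg/kg and 4.73 ± 0.409 in the Upf3b mice at 20 mg/kg.

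**Figure D4:**
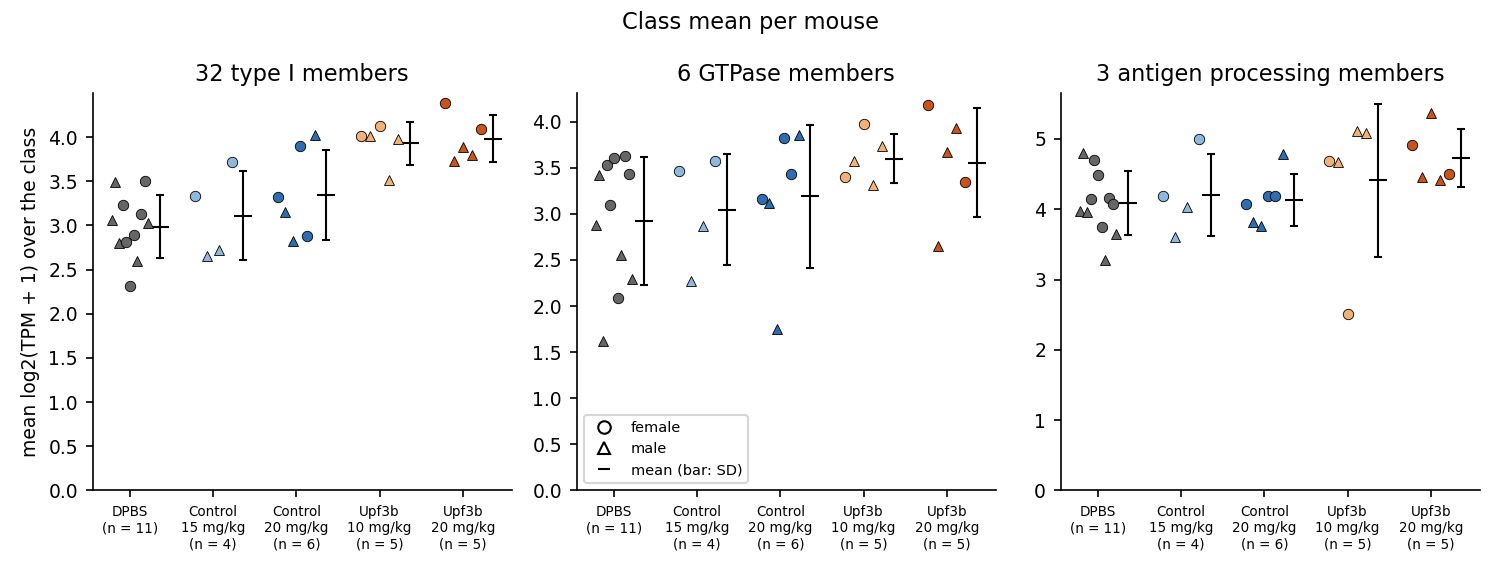
Mean of log2(TPM + 1) over the members of each class (y axis) by treatment group (x axis), 1 point per mouse (circles females, triangles males), with the group mean and SD beside the points. For the 32 type I members the Upf3b mice (3.51 to 4.39) lie above all DPBS mice (2.32 to 3.50), and the GTPase and antigen processing means overlap between groups.

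At the lower dose, Upf3b-GalNAc-ASO at 10 mg/kg is set against Control-GalNAc-ASO at 15 mg/kg, the nearest dose of the control, and no test is read from it because Ifi44 was first noticed there. Ifi44 stood at 27.3, 12.9, 103, 31.5 and 22.7 TPM against 3.58, 0, 2.48 and 10.5 TPM in the controls, with no overlap. Its log2 fold change was 3.26 (SE 0.589), and 2.99 (SE 0.602) without Upf3b replicate 3, the mouse with the fewest reads. Isg15 stood at 642, 449.5, 1078, 270.5 and 558 TPM against 168, 84.9, 99.8 and 203 TPM, a log2 fold change of 2.15 (2.01 without replicate 3). Rsad2 stood at 115, 197, 97.0, 91.8 and 120.4 TPM against 39.7, 10.5, 15.4 and 59.3 TPM, a log2 fold change of 2.27 (2.53 without replicate 3). Zbp1 stood at 70.2, 27.4, 21.6, 26.9 and 27.3 TPM against 8.53, 6.20, 3.03 and 13.4 TPM, a log2 fold change of 2.11 (2.47 without replicate 3). All of these Upf3b mice were above all of their controls. Ifit1 (80.4, 66.9, 198, 50.6 and 56.0 TPM against 26.0, 16.1, 12.7 and 56.0 TPM) had a log2 fold change of 1.82 (1.62 without replicate 3), and its groups overlapped, since Upf3b replicate 4 (50.6 TPM) lay below control replicate 4.

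In 5 members every Upf3b mouse lay above every control, as in 2.08% of all genes, and nothing is read from this count because Ifi44 was noticed in it. The median over the 22 type I members with enough signal was 1.0 (1.14 without replicate 3), with 18 above 0, against -0.03 over all genes. Ifi44, Usp18, Oasl1 and Cmpk2 passed the minimum through the Upf3b group only and Trim30a through the control group only, so this median rests in part on the filter. Over the alternatives that kept every mouse or used the replicate block, no minimum among them, the type I median ran from 0.81 to 1.21. The GTPase median was 0.88 (0.90 without replicate 3). The lowest GTPase value, -0.72 for Gbp6, turned to 0.05 without replicate 3. Tap1 stood at 34.8, 29.1, 2.94, 50.8 and 47.4 TPM against 12.1, 24.8, 16.8 and 25.4 TPM, and its log2 fold change rose from 0.24 to 0.97 when replicate 3 was left out. Against DPBS, whose mice are shared with the comparisons above, the log2 fold changes at 10 mg/kg were 2.69 for Ifi44 (2.41 without replicate 3), 1.54 for Isg15 (1.30 without) and 2.49 for Rsad2 (2.58 without). The lower control dose against DPBS had an Isg15 log2 fold change of -0.54. The doses and sequences of the 2 oligonucleotides differ in this comparison, so dose, sequence and target cannot be told apart in it.

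The heat map sets all 41 members side by side. Rsad2 and Isg15 were above the DPBS mean in all 10 Upf3b mice. The very high values of Upf3b replicate 3 at 10 mg/kg, with the fewest reads, stand out in Isg15 (1078 TPM), Ifi44 (103 TPM), Ifih1 (250.8 TPM), Parp14 (218 TPM) and Gbp7 (209 TPM), each the highest of all 31 mice for that gene. The same mouse had the lowest Tap1 and Psmb9 of its group, at 2.94 TPM each, which was 3 reads.

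**Figure D5:**
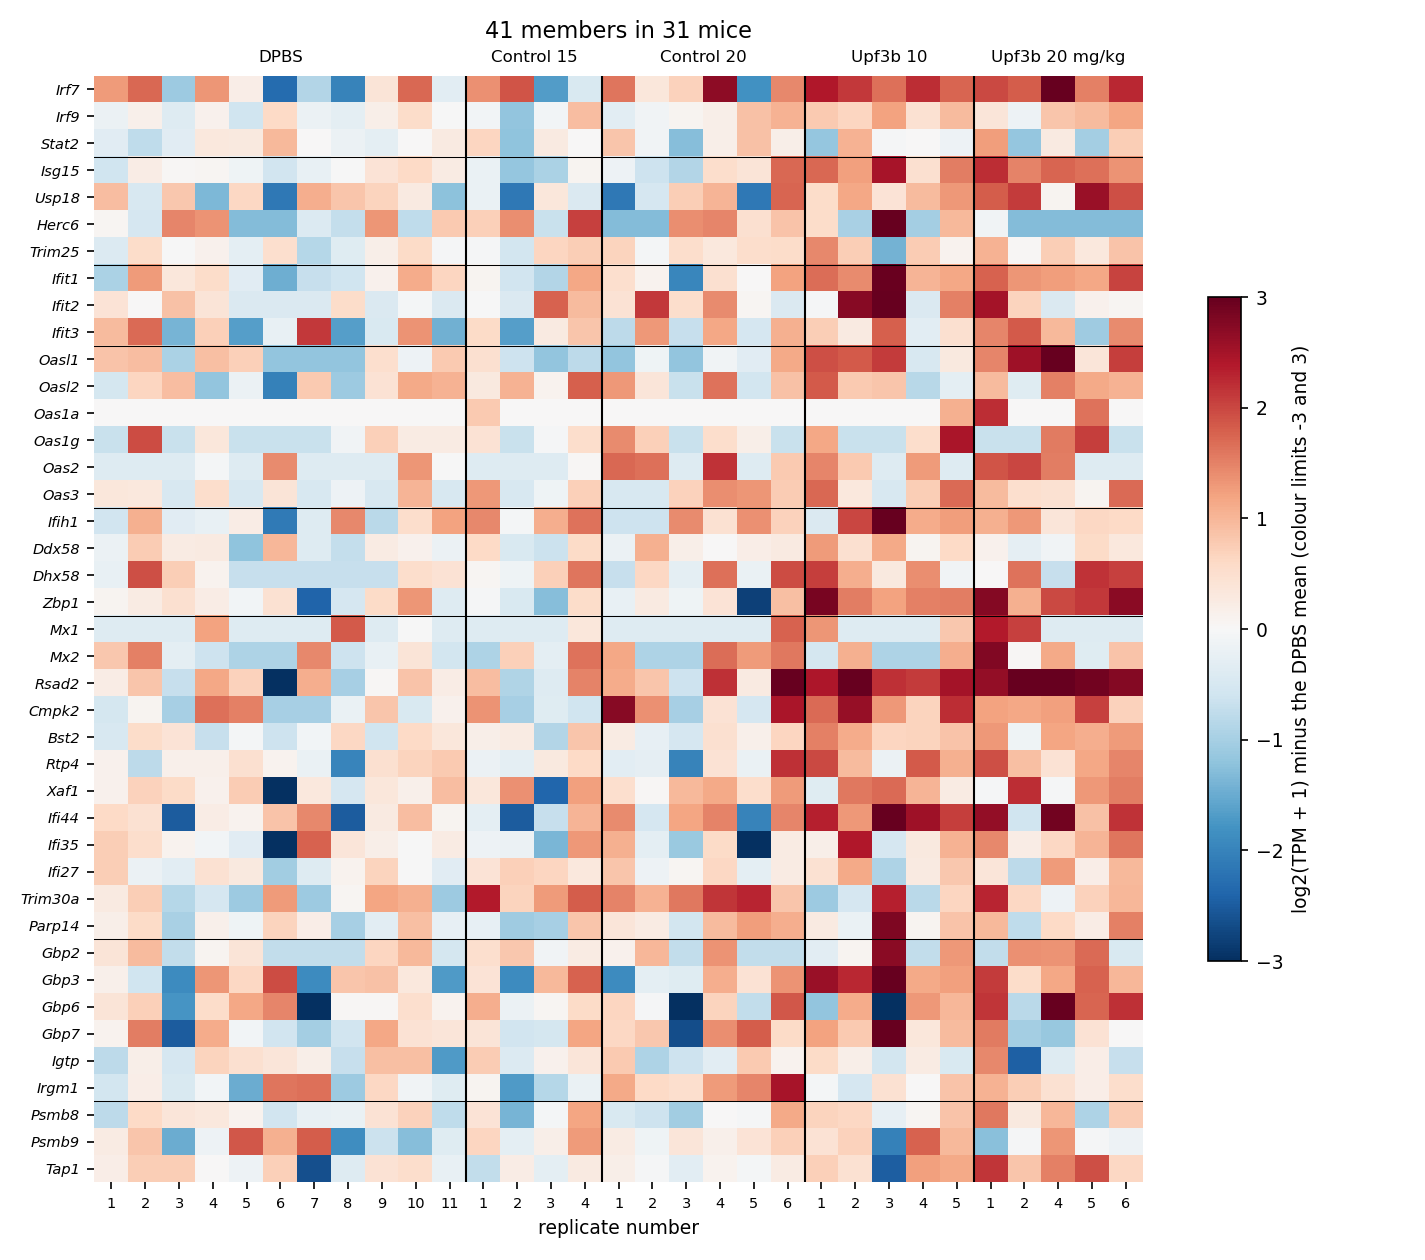
Log2(TPM + 1) of the 41 members (rows, in role order) in the 31 mice (columns, by group and replicate number), minus the DPBS mean of the row, on a colour scale from blue (below) to red (above). The rows of Rsad2 and Isg15 are red across the Upf3b columns, and Upf3b replicate 3 at 10 mg/kg has the most extreme columns of its group.

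Sex was examined because the groups held both. Among the 11 DPBS mice 0 of 27 members tested differed between males and females after adjustment, and 2 (Igtp and Ifi44) were lower in males at an unadjusted p under 0.05, against 0.745% of all genes called lower and 5.28% lower without adjustment. Ifi44 passed the minimum through the females only, so that count rests in part on the filter and nothing is read from it. Igtp ran from 16.9 to 28.7 TPM in the 6 females with a median of 22.5 TPM, and from 3.86 to 17.0 TPM in the 5 males with a median of 8.87 TPM. The lowest female (16.9 TPM) and the highest male (17.0 TPM) were the pair that overlapped, and the log2 fold change of males against females was -1.28 (SE 0.402, limma adjusted p = 0.196). The fold changes of all 5 GTPases tested were below 0 in males, with Igtp the 1 at an unadjusted p under 0.05, and their median was -0.82, against 0.03 over all genes. The type I median was -0.03. Ifi44 had -1.41 (SE 0.671, adjusted p = 0.502). The response to Upf3b-GalNAc-ASO at 20 mg/kg was tested for a difference between the sexes in a limma interaction model. There 0 of 30 members passed adjustment and 1 (Zbp1, interaction -2.22 on the log2 scale, adjusted p = 0.999) had an unadjusted p under 0.05. Over all 9376 genes 1 passed adjustment and 284 had an unadjusted p under 0.05, so nothing is read from the Zbp1 value.

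Upstream of the members, the pathway itself showed little at 20 mg/kg against the controls. Of 8 interferon genes none could be tested: 7 were at 0 in all 31 mice and Ifnk was at 1.15 TPM in 1 mouse. That is a limit of depth and does not show that interferon was absent. Of 9 receptors and kinases 7 were tested, of 11 sensing genes and adaptors 7 and of 6 inhibitors 4. By limma 0 of them were called, and 1 of the inhibitors was higher at an unadjusted p under 0.05, against 7.32% of all genes. That inhibitor, Trex1, passed the minimum through the Upf3b group only, so this count rests on the filter. Of 40 further interferon-stimulated genes outside the members, 30 were tested, 20 had a fold change above 0, 0 were called higher and 1 was called lower, and their median was 0.29. The minimum was passed by 25 of them through both groups (median 0.20) and by 5 through the Upf3b group only. With no minimum the median over all 40 was 0.16 and 26 were above 0. At an unadjusted p under 0.05, 2 of the 30 were higher, against 7.32% of all genes, and 1 was lower. Over all 9376 genes tested the median was -0.12, 43.2% were above 0 and 236 were called, 87 of them higher. The gene called lower was Helz2, a helicase and nuclear receptor coactivator gene, at 23.4, 11.5, 10.6, 29.8 and 11.3 TPM in the Upf3b mice against 38.0 to 65.7 TPM in the controls and 17.2 to 54.4 TPM in DPBS. Its log2 fold change was -1.61 (SE 0.353, adjusted p = 0.0187), lost without Upf3b replicate 6 (adjusted p = 0.0534) or control replicate 3 (0.0751). Against DPBS, 31 of the 40 were tested, 26 had a fold change above 0, 0 were called with 4 higher and 1 lower at an unadjusted p under 0.05, and the median was 0.44. The minimum was passed by 23 of them through both groups (median 0.40), by 7 through the Upf3b group only and by 1 through DPBS only. With no minimum the median over all 40 was 0.38 and 28 were above 0. Over all 9078 genes the median was 0.05 and 53.6% were above 0. An unadjusted p under 0.05 was found in 1081 of them, 488 higher.

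Markers of other liver cells are given beside these results. The 11 Kupffer cell and macrophage markers summed to 363 to 742 TPM in the Upf3b mice at 20 mg/kg, 265 to 856 TPM in their controls and 229 to 879 TPM in DPBS, and 0 of the 10 tested were called, with 0 at an unadjusted p under 0.05. Against DPBS, 7 of the 9 tested had a fold change above 0 (median 0.47), against 53.6% of all genes, and 0 were called. At an unadjusted p under 0.05, 2 were higher, against 5.38% of all genes. The part of these cells in the members' values was not tested. The 5 hepatocyte markers had fold changes below 0 against DPBS (median -0.19), with 0 called and 1 lower at an unadjusted p under 0.05. The 5 endothelial markers summed to 1531 to 2205 TPM, 574 to 1631 TPM and 585 to 2384 TPM in the same groups. Pecam1, which makes up most of that sum, was at 1485 to 2022 TPM against 429.8 to 1489.9 TPM in the controls (log2 fold change 1.27, SE 0.281, adjusted p = 0.0201) and 390.2 to 2306 TPM in DPBS, and its call was lost without Upf3b replicate 6 (adjusted p = 0.0515) or control replicate 3 (0.0815). Of the 5 endothelial markers 2 had a fold change above 0 against the controls (Pecam1 and Cdh5) and the median was -0.08, with Kdr lowest at -0.72 (adjusted p = 0.349). The part of endothelial RNA in the members' values was not tested. Plasmacytoid dendritic cell markers summed to 8.06 to 25.9 TPM against 3.75 to 20.9 TPM in the controls, with Klk1 at 0 in the Upf3b mice. T and NK cell markers summed to 0.921 to 5.13 TPM against 1.56 to 9.69 TPM, with Cd3e and Cd8a at 0 in the Upf3b mice. B cell markers summed to 0.771 to 12.0 TPM against 0 to 8.53 TPM, neutrophil markers to 0 to 17.9 TPM against 1.22 to 94.7 TPM, and stellate cell markers to 84.8 to 155 TPM against 98.9 to 172 TPM.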

How the data were processed

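Liver RNA was sequenced from 31 mice. Per the submitters' processing notes and the paper's methods, reads were demultiplexed with bcl2fastq 2.17.1.14 and quantified with Salmon 0.7.2 on mouse complementary DNA of GRCm38, and the deposited values are the authors' TPM per gene symbol. The labels name a 3' end library kit and the methods another protocol. The way transcripts became genes is not given in the sources used here. Within a mouse, 1 read was worth nearly the same TPM for every gene: between 67.1% and 81.4% of non-zero entries were an integer number of such steps (tolerance 0.02 of a step). The values thus behave as reads scaled to a total and not per length, and levels of different genes were not compared. The step put the reads behind each mouse at 1012529 to 7334001, and 3 reads at 0.406 to 2.94 TPM. Too few values were integers for a count test.

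Of 31198 rows, 26 carry calendar dates in place of symbols and were left out. For each comparison limma 3.58.1 (R 4.3.3; trended, robust) was fitted to log2(TPM + 1) of the mice in it, adjusting for sex. A gene entered where either group's median reached 5 TPM. Benjamini-Hochberg adjustment ran over all genes tested, with a call at an adjusted p under 0.05. The scripts were tested on simulated data. Fold changes on this scale understate changes of low genes. The labels give each mouse as a separate animal. Among 465 pairs of mice, 0 had identical values.

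The members, their role groups and the pathway and marker lists were chosen with earlier results of these data known. Named members are those called in a tested comparison, the members with the highest medians of each role group, and Ifi44. Members named outside that rule were chosen after their values were seen. Alternatives were a pseudocount of 0.5 or 5, no minimum or one of 1 TPM, quantile normalization, median scaling, no sex term, all mice in 1 fit, array weights, the replicate number as a block, and leaving out each mouse. Promoter sequences are from RefSeq (GRCm38.p6).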

Additional observations from a re-analysis of the deposited data

Results flagged for a closer look

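In groups of 4 to 10 mice, the highest or lowest mouse of each named member and class mean was set against the others by Dixon's criterion at the 95% level. Of 92 groups tested 10 had such a mouse, where chance gives about 1 in 20, or 4.6. In the controls at 20 mg/kg, Ddx58 was high in replicate 2 at 57.8 TPM (the others 23.8 to 32.9 TPM), Zbp1 was low in replicate 5 at 0.406 TPM (the others 7.43 to 17.2 TPM), Gbp7 was low in replicate 3 at 2.55 TPM (the others 32.5 to 77.9 TPM), and so was the GTPase mean of replicate 3 at 1.75 (the others 3.12 to 3.86, log2 scale). In the Upf3b mice at 20 mg/kg, replicate 2 was high in Rsad2 at 482.0 TPM (the others 132 to 185 TPM) and low in Bst2 at 660.0 TPM (the others 1541 to 1791 TPM), so 1 mouse stood at opposite ends for 2 members. In the Upf3b mice at 10 mg/kg, Zbp1 was high in replicate 1 at 70.2 TPM (the others 21.6 to 27.4 TPM), the type I mean was low in replicate 4 at 3.51 (the others 3.98 to 4.13), Tap1 was low in replicate 3 at 2.94 TPM (the others 29.1 to 50.8 TPM), and the antigen processing mean was low in replicate 3 at 2.50 (the others 4.68 to 5.11). Replicate 3 at 10 mg/kg has the fewest reads of all mice, and the part of depth in its values was not tested.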

How the results depend on the processing

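Of 378 recomputed log2 fold changes of named members other than Ifi44 at 20 mg/kg against the controls, 367 kept their sign and 331 also kept their side of the threshold. The number of members called there, 3 as reported, was 0 with no TPM minimum (where more genes are tested), 5 with median scaling, 0 with the replicate block and 0 to 5 when each mouse was left out. It was 0 without Upf3b replicate 1 or control replicate 1 or 3, and 5 without control replicate 6 (Ifit1, Isg15, Rsad2, Rtp4, Zbp1). The genes called in all, 236 as reported, were 67 with no minimum and 45 with the block. No Upf3b mouse at 20 mg/kg carries the number 3, so the block also leaves out control replicate 3, and leaving out that mouse alone gave 70 genes and 0 members. Against DPBS, 3 members became 5 with array weights. With the replicate block, which keeps only mice whose number occurs in both groups, Zbp1 was lost (2 members called) and the type I median of 0.94 became 1.31. Between males and females in DPBS, 0 became 1 (Igtp) with array weights. Allowing at most 1 mismatch raised the share of members with a response element from 54.8% to 87.1%, and that of all genes from 3.99% to 38.9%.

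Over all alternatives and left-out mice, the type I median ran from 0.40 to 0.97 against the controls at 20 mg/kg and from 0.68 to 1.31 against DPBS. Medians near 0 changed sign: the GTPase median against the controls ran from -0.52 to 0.17, the type I median of the lower control dose against DPBS from -0.23 to 0.23, its GTPase median from -0.03 to 0.37, and the type I median of males against females from -0.20 to 0.10. Among members, Stat2 (0.03) was -0.10 with no sex term, -0.038 with all mice in 1 fit, -0.23 with the replicate block and -0.16 to 0.21 when each mouse was left out, and leaving out each mouse gave Igtp -0.63 to 0.17, Ifi27 -0.036 to 0.48 and Ddx58 -0.25 to 0.031. The cause of these changes was not tested. Groups share replicate numbers in the labels, but at 20 mg/kg mice with the same number did not deviate together (correlations -0.26 to 0.10).

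With 1012529 to 7334001 reads a mouse, 3 reads were worth up to 2.94 TPM, which limits what can be said of the Oas, Mx and Ifit2 genes.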
